A study of Xenopus laevis with 2 samples.

Results

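Forkhead (Fox) genes were examined in *Xenopus laevis* animal caps with and without EBF3 activity. A probe was taken as a member when its gene name or description on the array named forkhead, fork head, winged helix, XFD, or Fox with a letter from A to R and a digit. The rule found 28 of the 21495 gene probes, each with a gene name of its own. Of these, 26 were for forkhead transcription factors. The other 2 matched by their letters alone, namely a zinc finger gene called XFDL 141 (LOC397848) and a gene for a protein with a forkhead-associated domain (LOC398657), which is a different fold. RefSeq gave a current symbol for 26 of the 28 array names.

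EBF3 is a transcription factor of neuronal development. It was supplied as a fusion to the glucocorticoid-binding part of a human receptor (hGR-Xebf3), which stays inactive until dexamethasone (DEX) is added. At the one-cell stage embryos received 1 ng of hGR-Xebf3 mRNA, or 0.4 ng of mRNA for hGR alone in the controls, and caps were cut at stage 9. DEX was given at 30 µM for 4.5 hours. On the first array, called the EBF3 array, Cy3 carried the RNA of hGR-Xebf3 caps given DEX (active EBF3). On the second, the hGR array, it carried that of hGR caps given DEX. Cy5 carried hGR-Xebf3 caps without DEX on both arrays, and is called the reference. No caps were neuralized, both proteins came from injected mRNA and not from the embryo's own genes, and hGR caps are unlike the reference both in their mRNA and in DEX. Each comparison had 1 array from 1 biological replicate without a dye swap. Replicate errors and p-values therefore cannot be given, dye and treatment cannot be told apart within an array, and neither can slide and group between arrays. The error given after a log2 ratio is the spot error estimated by the scanner software, which covers the spot alone.

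Forkhead proteins bind DNA through a winged helix domain and are sorted by letter into families with roles from the egg onward. FoxI genes act in the ectoderm and its ion-transporting skin cells, FoxJ1 switches on genes for motile cilia, and FoxD3, FoxD5 and FoxB1 belong to the neural crest or the neural plate. FoxA genes act in endoderm and notochord, FoxC, FoxD2 and FoxF in mesoderm, and FoxH1 carries nodal signals to the genome together with Smad proteins. By these roles 14 probes were grouped as ectodermal and 7 as mesendodermal, while 5 were not assigned. Several of these genes are used in more than 1 tissue, so the grouping follows their best known role.

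Values are ratios of processed signal, Cy3 over Cy5, positive on the log2 scale where the treated caps were brighter. A probe at least 2-fold apart is called higher or lower. A spot was measured where the scanner software put it well above background. Both channels of the EBF3 array measured 67.9% of the 28 probes (19 probes), against 50.2% over the whole array. Altogether 18 were measured in all 4 channels, 6 in none, and none was saturated or flagged as non-uniform on either array. To see how far 2 spots of the same kind of RNA lay apart, the reference channels were compared between arrays after Aquantile normalization. It gives the mean log intensity of the 2 channels the same distribution on both arrays and leaves their ratio unchanged. The Cy5 value after it therefore depends on Cy3 as well. Over 11243 probes measured in both references, the log2 difference of the references had an SD of 0.17. Among 20 of the 28 probes measured in both, 18 of them for forkhead factors, the difference ran from -0.48 to 0.54 and none was 2-fold apart.

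With active EBF3, probes for *foxi1* and *foxi4.2* were far lower than in the reference, and probes for *foxa1*, *foxf1* and *foxd3* were far higher. Of the 28 probes, 5 were higher by at least 2-fold (17.9%) and as many lower by at least 2-fold (17.9%). Over all 21283 usable probes the shares were 2.11% higher and 2.03% lower. The lower members were probes for *foxi1* and *foxi4.2* (XFD2′ and XFD2), BG020041, and LOC397848, which is not a forkhead gene. The study's annotation places BG020041 in the *foxi4.2* cluster, so the lower share rests on few forkhead genes. Restricted to spots measured in both channels, 4 of 19 were higher and 5 of 19 lower, against 2.51% and 2.41% of all such probes. The medians lay near 0, at 0.18 (log2) for the 28 probes and -0.09 for all probes. The forkhead probes thus stood out by a few large ratios in both directions and not by a common shift.

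**Figure D1:**
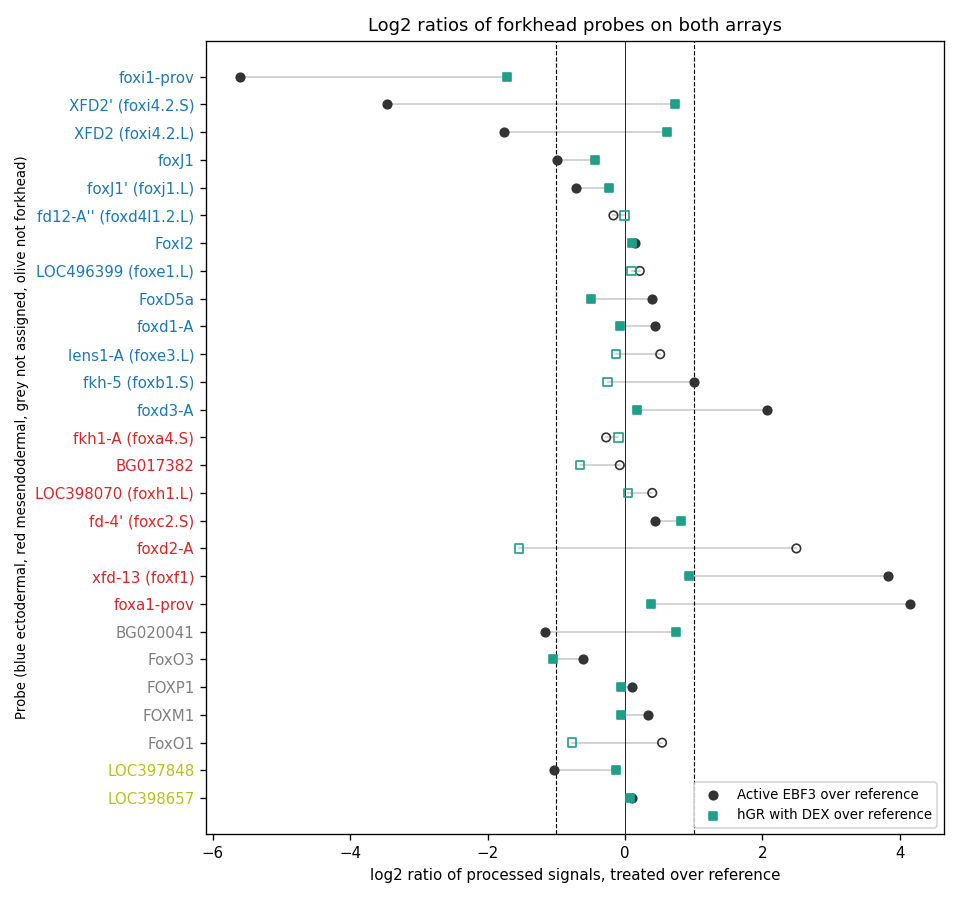
Log2 ratio of treated caps over the reference for 27 of the 28 probes (x axis), with the EBF3 array as circles and the hGR array as squares, joined by a line. Filled symbols were well above background in both channels, and dashed lines mark 2-fold. *foxi1*, *foxi4.2* and *foxa1* lie far out on the EBF3 array, at -5.61, -3.47 and 4.15.

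The 2 classes were then counted apart. Of the 14 ectodermal probes, 3 were lower and 2 higher under active EBF3, and of the 7 mesendodermal probes, 3 were higher and none lower. Over all usable probes 2.11% were higher and 2.03% lower. Among probes measured in both channels, 3 of 10 ectodermal probes were lower and 2 higher. Of 3 such mesendodermal probes, 2 were higher and 0 lower, since the reference of *foxd2* was not well above background. Over all such probes 2.51% were higher and 2.41% lower. The median was 0.18 (log2) in the ectodermal and 0.43 in the mesendodermal class. Both medians shifted when only probes measured in both channels were kept, to -0.29 over 10 ectodermal and 3.83 over 3 mesendodermal probes. The lower probes of the first class were all FoxI genes, and the counts describe these probes on 1 array, with no test.

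Members of the FoxI family gave the lowest ratios. The *foxi1* probe (foxi1-prov), for a factor of ion-transporting cells of the skin, read 1728 under active EBF3 against 84291.5 in the reference of that array. On the other array it read 21102 in hGR caps against 69647 in the reference. The gene was therefore bright in both references, lower in hGR caps and lowest under active EBF3. It was 48.8-fold lower under active EBF3 (log2 -5.61 ± 0.46) and, in hGR caps, 3.30-fold lower (log2 -1.72 ± 0.21). On the EBF3 array it had the 2nd lowest ratio of all 21283 probes.

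The 2 probes for *foxi4.2* followed another course. XFD2′, matched to the S copy of the gene, read 5329 under active EBF3 and 58877 in its reference, against 85582 in hGR caps and 51633 in theirs. It was 11.05-fold lower under active EBF3 (log2 -3.47 ± 0.31) and 1.66-fold higher in hGR caps (log2 0.73 ± 0.17). XFD2, matched to the L copy, read 35486 and 120080 on the EBF3 array, then 179150 and 117078 on the hGR array. It was 3.38-fold lower under active EBF3 (log2 -1.76 ± 0.21) and 1.53-fold higher in hGR caps (log2 0.61 ± 0.17). Both copies thus lay below the reference in the first comparison and above it in the second. *X. laevis* keeps many genes as a pair of similar L and S copies, and whether each probe reads only its own copy is uncertain, since probe sequences were not used here.

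An expressed sequence tag annotated only as a fork head protein (BG020041) lay on the same sides of the reference. It read 303 under active EBF3 and 679.6 in the reference, and 916 in hGR caps and 547 in theirs. This was 2.24-fold lower (log2 -1.17 ± 0.30) and 1.68-fold higher (log2 0.74 ± 0.21). The annotation tables of the study place this tag in the same *foxi4.2* cluster as XFD2, but the array does not give its family, so it was left unassigned. Another FoxI gene, *foxi2* (FoxI2), stayed close to its reference, with 15628 against 14199 under active EBF3 and 12359.5 against 11536 in hGR caps, or 1.101-fold and 1.07-fold higher. Within the family the ratios under active EBF3 therefore spanned from -5.61 to 0.14 (log2).

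**Figure D2:**
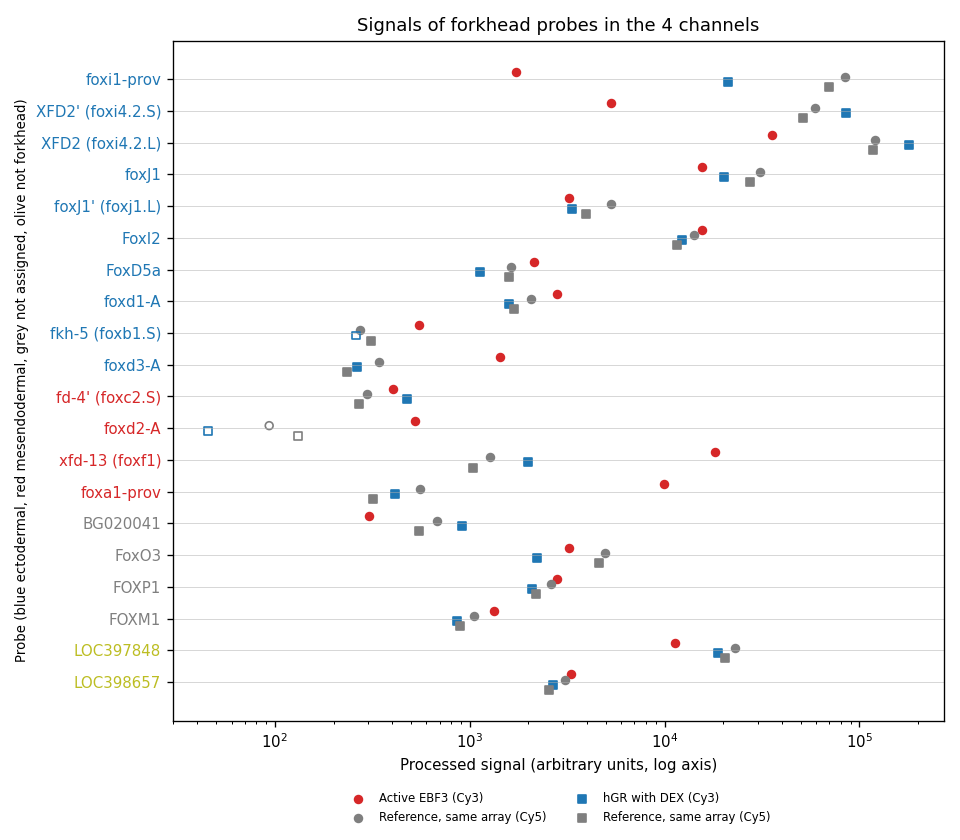
Processed signal (x axis, arbitrary units, log scale) in the 4 channels for each probe past 2-fold on either array or measured in all 4 channels. Circles are the EBF3 array, squares the hGR array, grey symbols the reference, and open symbols were not well above background. For *foxi1* and both *foxi4.2* probes the active EBF3 channel is the lowest of the 4, and for *foxa1*, *foxf1* and *foxd3* it is the highest.

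The 2 probes for *foxj1*, the regulator of motile cilia, were lower than the reference in both comparisons without reaching 2-fold. foxJ1, matched to the S copy, read 15578 under active EBF3 and 30816 in the reference, and 20282 and 27476 on the hGR array. The ratios were 1.98-fold lower (log2 -0.98 ± 0.18) and 1.35-fold lower. foxJ1′, matched to the L copy, read 3235 and 5328 under active EBF3 and 3351 and 3941 on the hGR array, which was 1.65-fold and 1.18-fold lower. foxJ1 lies just short of the threshold and passed it with median centring in place of the dye curve (log2 -1.17), and both copies had the same order of the 2 treated samples.

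Ectodermal genes of the neural plate and crest did not share the direction of the FoxI genes. *foxd3* (foxd3-A), a neural crest factor, read 1434 under active EBF3 and 342 in the reference, and 265 in hGR caps and 235 in theirs. Only the active EBF3 channel stood out, at 4.20-fold higher (log2 2.07 ± 0.27), while the ratio in hGR caps was 1.13-fold higher. *foxb1* (fkh-5, S copy), a gene of the neural plate, read 549 under active EBF3 and 275 in the reference, which placed it at the threshold (2.00-fold, log2 1.00 ± 0.33). In hGR caps it read 262, not well above background, against 313 in the reference. The difference, 1.19-fold (log2 -0.25 ± 0.33), was smaller than its spot error, so no direction is given.

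The remaining ectodermal genes differed little from the reference. FoxD5a, a neural plate factor, read 2137 and 1620.3 on the EBF3 array, then 1131 and 1586 on the hGR array, thus 1.32-fold higher and 1.40-fold lower. *foxd1* (foxd1-A), expressed in the anterior neural plate, read 2810.4 and 2072 under active EBF3 and 1595 and 1681 in the control comparison, or 1.36-fold higher and 1.05-fold lower. Neither ratio reached 2-fold. The probes for *foxe1*, *foxe3* and a second FoxD5-type gene (fd12-A″) were not well above background in any of the 4 channels. Their signals on the EBF3 array ran from 85.4 to 148.3, and no fold is given for them.

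Mesendodermal genes gave the highest ratios. *foxa1* (foxa1-prov), a gene of the endoderm that opens chromatin for other factors, read 9908 under active EBF3 against 558 in the reference. In hGR caps it read 416 against 318. It was 17.8-fold higher under active EBF3 (log2 4.15 ± 0.35), the 16th highest of 21283 probes, and 1.30-fold higher in hGR caps (log2 0.38 ± 0.28). Its reference was also brighter on the first array than on the second, by 0.54 on the log2 scale after Aquantile normalization, the largest such gap among the 20 probes.

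*foxf1* (xfd-13), a gene of lateral mesoderm, read 18084 under active EBF3 and 1274 in the reference, and 1995 in hGR caps and 1043 in theirs. It was 14.2-fold higher under active EBF3 (log2 3.83 ± 0.33), the 25th highest, and 1.91-fold higher in hGR caps (log2 0.94 ± 0.19). This was the highest forkhead ratio on the hGR array, still under 2-fold. *foxd2* (foxd2-A, S copy), a gene of mesoderm along the axis, read 527 under active EBF3, and 93.5 in the reference, which was not well above background. The difference is at least 2.58-fold with this processing. Under a background correction with an offset it was 0.70 (log2), inside 2-fold. In hGR caps and their reference it read 45.3 and 132, neither well above background, so no fold is given there although the quotient of the 2 signals passes 2-fold.

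Other mesendodermal members stayed near the reference or out of range. *foxc2* (fd-4′, S copy), a gene of mesoderm, read 402 and 298 under active EBF3 and 475 and 270.3 on the hGR array, or 1.35-fold and 1.76-fold higher. A tag annotated as similar to XFD-11, a FoxC gene (BG017382), was measured only in the references. Its bounds of 1.05-fold and 1.03-fold were smaller than the spot errors (log2 0.49 and 0.51), so no direction is given. *foxh1* (LOC398070), the nodal mediator, and *foxa4* (fkh1-A), a gene of the organizer and notochord, were not well above background in any of the 4 channels, with signals from 69.9 to 133.5. The 3 mesendodermal genes that were higher thus belong to 3 families, and *foxa4*, the FoxA gene of the notochord, was not detected beside *foxa1*.

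Among genes not tied to a germ layer, *foxo3* (FoxO3), a factor downstream of insulin signalling, read 3245 and 4956 under active EBF3 and 2228 and 4598 on the hGR array. It was 1.53-fold lower under active EBF3 (log2 -0.61 ± 0.17) and, in hGR caps, 2.06-fold lower (log2 -1.05 ± 0.18). Both samples given DEX were therefore below the untreated reference. *foxm1* (FOXM1), a driver of the cell cycle, read 1325 and 1054 under active EBF3 and 862 and 896 on the hGR array, or 1.26-fold higher and 1.04-fold lower. *foxp1* (FOXP1), a repressor of transcription, read 2815 and 2615 under active EBF3 and 2090.4 and 2187 on the hGR array, or 1.08-fold higher and 1.05-fold lower. *foxo1* (FoxO1) was not measured in any channel.

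The 2 probes matched only by their letters are not counted with the factors. The zinc finger gene LOC397848 read 11276 and 23032 under active EBF3 and 18824 and 20525 on the hGR array, which was 2.04-fold and 1.09-fold lower. LOC398657 read 3312 and 3094, then 2681 and 2555, or 1.07-fold and 1.05-fold higher. Without them, 5 of 26 probes were higher and 4 lower under active EBF3, against 2.11% and 2.03% of all probes.

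The hGR array addressed what came with DEX and without the EBF3 fusion. Of the 28 probes none was 2-fold higher, and 3 lay at least 2-fold lower (10.7%), namely *foxi1*, *foxo3* and *foxd2*, the last with neither channel measured. Over the 21343 usable probes 1.02% were higher and 4.08% lower. Among probes measured in both channels, 0 of 19 were higher and 2 of 19 lower, against 0.864% and 1.44% of all such probes. The medians were -0.04 (log2) in the ectodermal, 0.04 in the mesendodermal class and -0.06 over all probes. *foxi1* is thus the only forkhead probe measured at least 2-fold lower than the reference on both arrays.

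**Figure D3:**
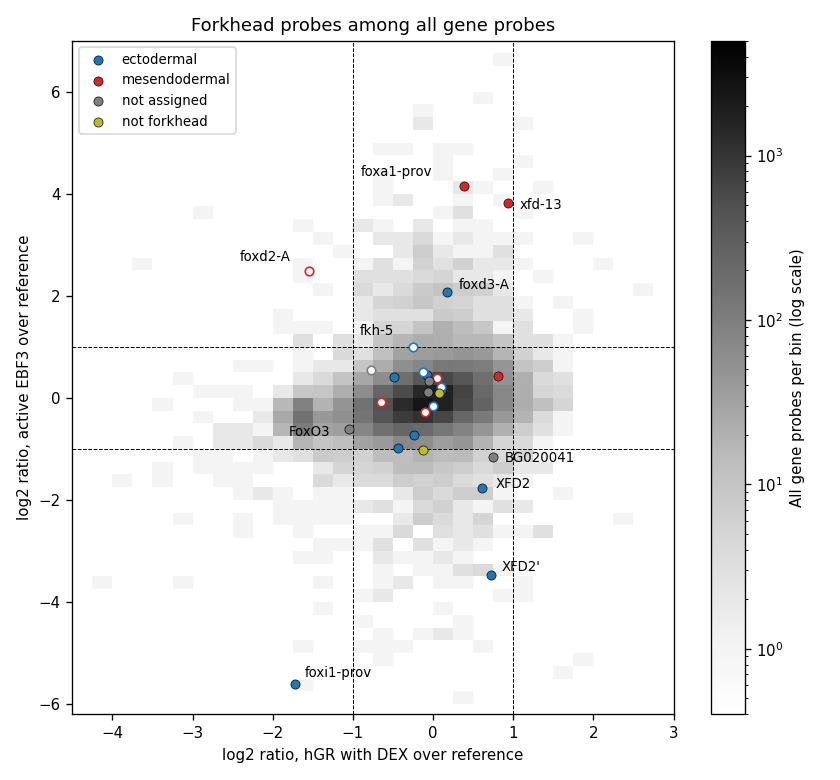
Log2 ratio under active EBF3 (y axis) against that in hGR caps (x axis), both over the reference; grey squares count all gene probes in bins of 0.25 (log scale), and coloured points are forkhead probes by class, open where not measured in all 4 channels. Both axes share the reference; *foxa1* and *foxf1* lie at the top, *foxi1* at the bottom left, and the *foxi4.2* probes at the bottom right.

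To set active EBF3 directly beside hGR caps, both with DEX, the log2 ratio of the hGR array was subtracted from that of the EBF3 array. Of the 18 probes measured in all 4 channels, 3 were higher by at least 2-fold and 4 lower, against 3.08% and 3.49% of the 9944 probes measured in all 4. The 3 higher were *foxa1* (13.6-fold), *foxf1* (7.42-fold) and *foxd3* (3.72-fold). The 4 lower were XFD2′ (18.3-fold), *foxi1* (14.8-fold), XFD2 (5.18-fold) and BG020041 (3.76-fold). All but *foxi1* are probes for *foxi4.2* or were placed in its cluster by the study's annotation, so this lower share also rests on few genes. In this comparison XFD2′ passed *foxi1*, whose level in hGR caps was itself below the reference.

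A second form of this comparison took the 2 Cy3 channels after Aquantile normalization, and all 7 stayed past 2-fold in the same direction. It differs from the first only by the Cy5 gap of each probe between the arrays, at most 0.54 (log2) here. It is therefore no separate check. *foxa1* was 19.7-fold, *foxf1* 7.55-fold and *foxd3* 4.42-fold higher under active EBF3. XFD2′ was 18.0-fold, *foxi1* 13.7-fold, XFD2 5.36-fold and BG020041 3.72-fold lower. *foxd2* was at least 2.12-fold and *foxb1* at least 1.71-fold higher, as neither was measured in hGR caps. The other 11 probes measured in all 4 channels lay within 2-fold, although both DEX samples come from different slides.

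**Figure D4:**
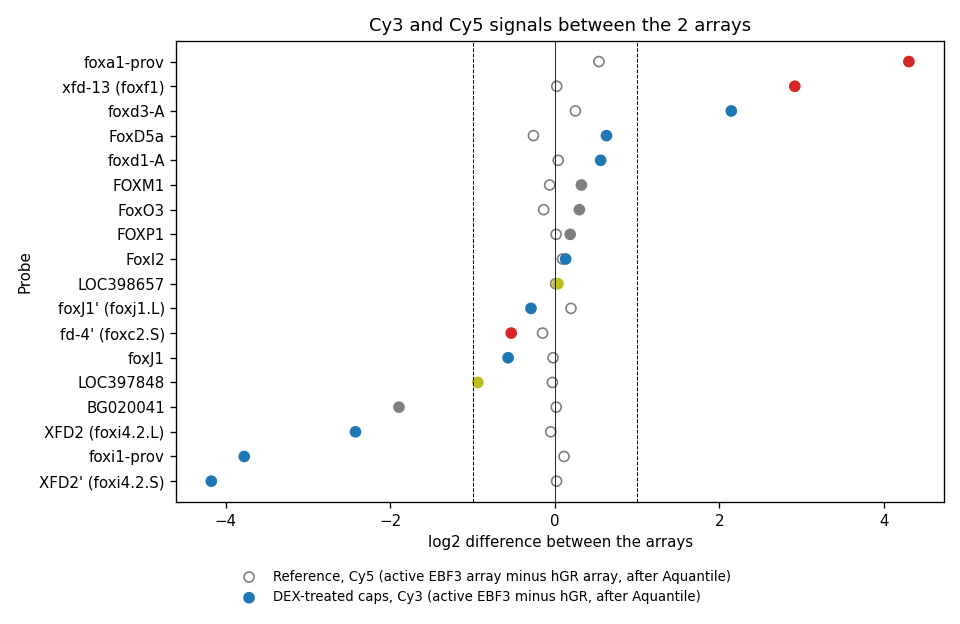
Log2 difference between the arrays (x axis, EBF3 array minus hGR array, after Aquantile normalization) for the 18 probes measured in all 4 channels. Open circles are the Cy5 reference and filled circles the Cy3 samples, coloured by class as in the plots of signals and ratios; the reference points lie within 0.54 of 0 on either side, while 7 Cy3 points lie beyond 1.

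Genes known to act with or downstream of forkhead factors were found by name and read beside them. For FoxI there were 10 probes, for carbonic anhydrases and subunits of a proton pump, and none was 2-fold apart on either array. Their median was -0.13 (log2) under active EBF3 over 7 measured and 3 dim probes. They were found by name, and whether they are particular to ion-transporting cells was not examined. For FoxJ1 there were 7 probes for dyneins and a tektin, and none was 2-fold apart, but the 2 measured in both channels (DLIC1 and dnclic1-prov) are for cytoplasmic dynein and not for cilia. Over all probes the shares were 2.11% and 2.03%, so these counts of 0 are near the background.

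For FoxD3 there were 4 probes for neural crest genes, 1 of which was higher, against 2.11% of all probes. This was *snail* (sna), which read 2226 against 527 and was 4.22-fold higher under active EBF3; in hGR caps it was 1.13-fold lower. *sox9* (SOX9) lay just inside the threshold (log2 -0.996). In the same list, *sox10* was within 2-fold and *slug* (LOC398235), dim under active EBF3, was at least 1.38-fold lower. This small bound is given without a spot error, so its direction is uncertain. For FoxD5 there were 9 usable probes for neural plate genes, of which 3 were higher and 1 lower, next to 2.11% and 2.03% of all probes. Among the 6 measured in both channels, 2 were higher and 0 lower, next to 2.51% and 2.41%. Of the 9, the higher ones were zic5-A (at least 16.8-fold), the Iroquois gene AF338157 (10.6-fold) and Xiro3 (2.39-fold), and the lower one was irx2-A (at least 9.23-fold). Members of the Iroquois family thus lay on both sides, and *sox3* and *geminin* were within 2-fold.

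For FoxA the array had 1 probe, *hhex* (hhex-A), a gene of anterior endoderm and blood vessels. It read 4276 under active EBF3 against 103.8 in the reference, which was not well above background, or at least 20.8-fold higher, and it was not measured on the hGR array. For FoxH1 there were 6 nodal-related probes. Only nr1-A had both spots measured under active EBF3, at 272 against 338, which was within 2-fold. By the quotient of its signals 1 of the 6 (LOC397835) was 2-fold higher, against 2.11% of all probes. Neither of its channels was well above background, so no fold is given.

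Markers of the cap and of other tissues were read in the same channels. The probe for *ebf3* itself (Xebf-3) was too dim to be measured in any channel, so the injected message gives no check of the labels. All 4 ectoderm probes were well above background in every channel, although the spot for *dlx3* was non-uniform on the hGR array and gave no value there. Epidermal keratin (LOC397756) was 1.96-fold lower under active EBF3, grainyhead-like 1 (AY591750) 1.57-fold, C-cadherin (cdhc-A) 1.20-fold and *dlx3* (dlx3-A-prov) 3.83-fold lower. In hGR caps the other 3 lay close to the reference, keratin at 1.08-fold higher and the others at 1.03-fold lower. Beside the lower *foxi1* and *foxi4.2* signals, all 4 ectoderm markers had ratios below 1 (median log2 -0.81). Of all 10690 probes measured in both channels, 5307 also had ratios below 1. Only *dlx3* of the 4 passed 2-fold, against 2.41% of all such probes at least 2-fold lower.

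Of the 4 mesoderm probes, *myod* (LOC397758) was 107-fold higher under active EBF3 and 1.78-fold higher in hGR caps. Muscle actin (acta1-prov) was 1.18-fold and 1.09-fold higher, and both brachyury probes (Xbra and bra3-A-prov) were not well above background in any channel. NCAM, the only neural probe of the list, was also below that level, so the list does not show how neural genes behaved. The study reports, from this same array experiment, that its selected neuronal candidate genes were upregulated in caps that were not neuralized. No endoderm marker of the list was found. The higher *foxa1* and *foxf1*, and *foxd2* as a bound that depended on the processing, thus came with a higher *myod* and *hhex*. Muscle actin stayed within 2-fold and brachyury was not detected. What part other cell types had in these ratios was not tested. In RNA from whole caps, a change in the number of cells of a type and a change of RNA per cell cannot be told apart.

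Processing mattered most for dim probes. The 6 probes that kept 2-fold under a background correction with an offset were *foxi1*, both *foxi4.2* probes, *foxa1*, *foxf1* and *foxd3*, the last only just, at 1.01 (log2). Under that correction fkh-5 had a log2 ratio of 0.32, foxd2-A 0.70 and BG020041 -0.43. In the reference of the EBF3 array these read 275, 93.5 and 680. *foxd3* and *foxa1* read 342 and 558 there, dimmer than BG020041, and kept 2-fold. In the active EBF3 channel they were the brighter ones, at 1434 and 9908 against 303 for BG020041. LOC397848, a bright probe, lay just inside 2-fold under that setting.

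**Figure D5:**
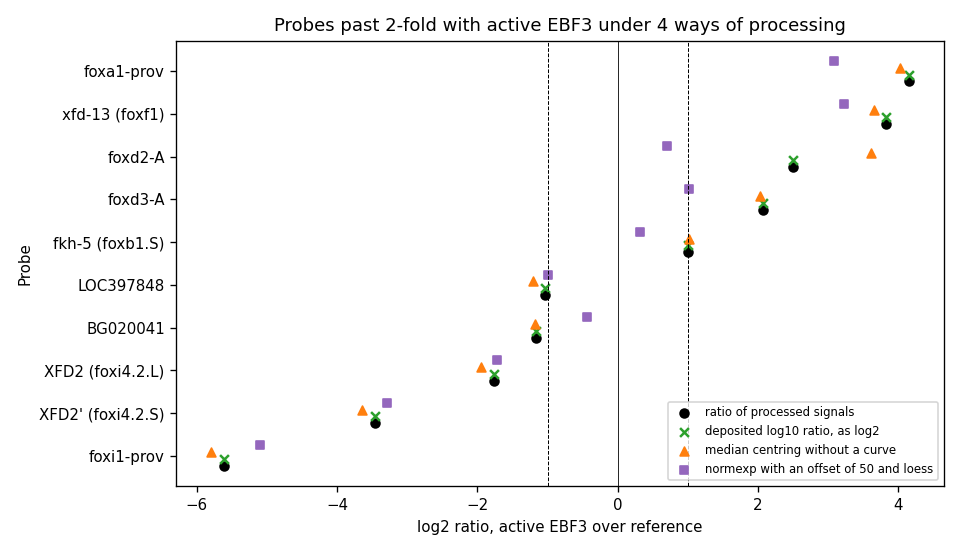
Log2 ratio of active EBF3 over the reference (x axis) for the 10 probes past 2-fold, under 4 ways of processing the same spots, with dashed lines at 2-fold. *foxi1* and XFD2′ stay below -3 and *foxa1* and *foxf1* above 3 under all 4, while fkh-5, foxd2-A, BG020041 and, just, LOC397848 fall inside the lines with the offset.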

How the data were processed

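Each deposited file held the spots of 1 two-colour Agilent array. Per the file headers, the authors extracted the intensity of each channel with Feature Extraction 8.1.1.1, subtracted background with detrending, and normalized dyes by LOWESS within the array. The deposited log10 ratio (Cy5 over Cy3) and its p-value come from the error model of the software and cover spot error only. The series table equalled that ratio with the sign turned. From the deposited intensity values, log2 of processed Cy3 over Cy5 was computed. Control and non-uniform spots were dropped, and 2-fold was the threshold. A single array per comparison allowed no test. Where only 1 of the channels was well above background, its value was divided by whichever was larger in the dim channel, the value of that probe or the lowest measured one, after Aquantile normalization in limma 3.58.1, and given as "at least". Such bounds are open to dye bias, as no dyes were swapped, and hold for this processing alone. For members, a bound smaller than the spot error gives no direction. Bounds of partner genes and of tags outside the rule are given without a spot error. Every forkhead probe past 2-fold on either array, or measured in all 4 channels, is named with its signals. Of the members, 1 enters the counts only, and 1 partner gene was left out of its list. Members, classes and lists were chosen with earlier results of these data known. The limma normalizations were also run on simulated arrays without dye bias. That run therefore cannot show how dye bias was handled in the real arrays. Alternatives were normexp with an offset of 50 and loess, median centring, 5-fold, a spot p-value under 0.01, the series table, filters on dim spots, the deposited log10 ratio, keeping non-uniform spots, leaving out letter-only matches, and distinct gene names. Names were matched to RefSeq (Xenopus_laevis_v10.1), and genome positions were not used here. The number of arrays limits the precision.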

Additional observations from a re-analysis of the deposited data

Results flagged for a closer look

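For 3 forkhead probes measured in all 4 channels and past 2-fold with active EBF3, the 2 comparisons pointed in opposite directions. FoxD5a, *foxd1*, *foxm1* and *foxp1* also had ratios of opposite sign, but within 2-fold on both arrays. Log2 ratios with active EBF3 minus those in hGR caps were -4.19 for XFD2′, -2.37 for XFD2 and -1.91 for BG020041. All 3 were at least 2-fold below the reference with active EBF3 and above it in hGR caps. The difference between the comparisons was not tested, since each rests on 1 array and both share the reference.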

How the results depend on the processing

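No paired analysis was possible because no group had a second array, and so there was also no replicate to leave out. A log2 value is said to move when it differs by more than 0.24, the SD between the reference channels over all probes, and a count when it differs by over 1.5 times. With active EBF3, the 10 of 28 probes past 2-fold, 1 of them matched by letters only, became 6 with normexp and an offset of 50, and 5 at 5-fold. On the hGR array, 3 became 1 and 0, and 2 without spots in which neither channel was measured. The ectodermal median with active EBF3, 0.18, turned to -0.29 when probes had to be well above background in both channels, and also in at least 1 channel. The mesendodermal median with active EBF3, 0.43, was 0.15 with normexp, 1.41 with median centring, 1.46 with the series table, 3.83 for probes well above background in both channels and 2.49 in at least 1 channel. On the hGR array the mesendodermal median of 0.04 became 0.40, 0.38, 0.81 and 0.60 under the last 4 of these settings. These filters and the series table leave out dim probes. The other settings kept these medians and counts within the limits, among them BG020041 counted as ectodermal, chosen after seeing the data (0.14 with active EBF3 and -0.004 in hGR caps). Distinct gene names and keeping non-uniform spots could change nothing, as all 28 names differ and no member was flagged. The deposited log10 ratio comes from the same processed signals. For foxd2-A on the hGR array, however, it was 0 (log2) in place of -1.54. With it, 2 of the 3 lower probes of that array stayed past 2-fold. None of these settings is a separate check of the results. Of the values of single named probes, foxd2-A on the hGR array reversed, to 0.12 with normexp, and 25 moved. Signal over background was a limit, as 19 of 28 probes were measured in both channels of each array. The number of arrays was another. With median centring foxJ1, just inside 2-fold with active EBF3, passed it (log2 -1.17).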

Other observations

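Tags without forkhead in their array annotation can still be forkhead genes. The annotation tables of the study give a forkhead name to 4 such tags, and these tables list probes picked for being 2-fold apart in the study's own arrays, so the direction of the tags lends no support. BP683400, annotated as forkhead box I4 gene 1, read 231 with active EBF3, not well above background, against 1111 in the reference, or at least 4.81-fold lower. In hGR caps it read 4456 against 935 and was 4.77-fold higher. It thus lay below the reference in one comparison and above it in the other, as did the *foxi4.2* probes.

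BP707411, annotated as forkhead box A2, read 741 against 317 with active EBF3 (2.34-fold higher) and 83.6 against 276 in hGR caps (at least 1.35-fold lower). BX852824, annotated as forkhead box A1, read 378 with active EBF3 against 177 in a reference that was not well above background, or at least 1.85-fold higher, and was not measured on the hGR array. BG018270, annotated as FoxN4, read 219.5, not well above background, against 335 with active EBF3 (at least 1.52-fold lower) and 389.7 against 282 in hGR caps (1.38-fold higher). These 4 tags were chosen with values in view. Their bounds are given without a spot error, so the direction of the smaller bounds is uncertain.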
